A study of Homo sapiens with 6 samples.

Results

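Zinc finger clusters outside chromosome 19 were taken as 12 windows of the hg38 genome on 9 chromosomes, and their members were the H3K9me3 peaks whose midpoint lay in a window. Of the 50558 peaks in the 3 deposited lists, 580 were members, 197 of 14715 with PURPL guide 1, 135 of 12190 with PURPL guide 2 and 248 of 23653 with the control guide. H3K9me3, histone H3 with 3 methyl groups at lysine 9, had been profiled by chromatin immunoprecipitation and sequencing in BJ cells, a fibroblast line from human skin. The 3 cell lines carried sgRNA-PURPL#1 (guide 1), sgRNA-PURPL#2 (guide 2) or sgCtrl (the control guide), all made for CRISPR interference, where guide RNAs steer a repressor to the gene they match. PURPL encodes a long non-coding RNA that p53 induces. There were 6 samples, an H3K9me3 library and an input library from each cell line, so with 1 library of each kind no difference below has a replicate check and none carries a p-value. Whether a cell line was a clone or a pool, and how far each guide lowered the PURPL RNA, was not analysed here.

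Zinc finger genes of the KRAB family encode DNA-binding repressors. Many of them bind transposable elements and bring in the co-repressor TRIM28 and the methyltransferase SETDB1, which writes H3K9me3. The genes themselves sit in clusters of near copies, and H3K9me3 is known to lie over their bodies, above all over the last exon, which encodes the array of zinc fingers. ZNF274, itself a zinc finger protein, is known to recruit the mark to these exons. Genes of the related SCAN family carry a SCAN domain, by which the proteins pair, with or without a KRAB domain.

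By midpoint the windows hold 139 protein-coding genes, of which 81 have a symbol starting with ZNF, ZSCAN, ZKSCAN, ZFP or ZBTB and are called zinc finger genes here. The peaks of these windows stopped short of the gene starts, and 3 start windows are shown for that reason. RefSeq start windows (GRCh38.p14), each 250 bases before to 50 bases after an annotated start, were at hand for 66 of the 81 zinc finger genes, with 85 starts in all. Of these 85 starts, 1 touched a guide 1 peak, 0 a guide 2 peak and 0 a control peak. ZNF84 had the largest share of its body under control peaks of any gene named below and ZNF141 the longest control coverage of the zinc finger genes at the tip of chromosome 4. ZNF117 holds the start that touched a guide 1 peak, over 195 of its 300 bases. In the lines below, capitals mark the dinucleotide CG, the site of DNA methylation. The first is at chr12:133037259-133037558 (plus strand), the next at chr4:337564-337863 (plus strand) and the last at chr7:64990987-64991286 (minus strand).
ZNF84: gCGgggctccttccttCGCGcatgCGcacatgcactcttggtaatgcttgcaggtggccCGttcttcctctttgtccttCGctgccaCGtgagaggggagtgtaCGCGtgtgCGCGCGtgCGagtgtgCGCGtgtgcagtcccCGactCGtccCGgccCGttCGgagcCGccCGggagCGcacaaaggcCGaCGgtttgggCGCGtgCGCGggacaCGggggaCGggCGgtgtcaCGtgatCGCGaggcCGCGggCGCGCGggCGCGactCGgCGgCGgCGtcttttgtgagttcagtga
ZNF141: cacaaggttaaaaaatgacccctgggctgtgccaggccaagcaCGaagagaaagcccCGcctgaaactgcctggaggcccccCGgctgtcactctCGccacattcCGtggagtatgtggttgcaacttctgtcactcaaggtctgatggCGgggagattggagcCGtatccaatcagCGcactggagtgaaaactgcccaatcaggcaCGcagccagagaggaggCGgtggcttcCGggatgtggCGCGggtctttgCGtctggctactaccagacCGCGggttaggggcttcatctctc
ZNF117: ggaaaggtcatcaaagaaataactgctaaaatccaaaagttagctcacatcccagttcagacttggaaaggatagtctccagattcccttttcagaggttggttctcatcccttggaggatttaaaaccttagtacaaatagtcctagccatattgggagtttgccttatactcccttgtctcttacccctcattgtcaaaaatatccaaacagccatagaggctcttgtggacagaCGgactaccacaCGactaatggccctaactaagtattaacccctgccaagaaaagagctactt
The ZNF84 start holds 46 CG sites, the ZNF141 start 16 and the ZNF117 start 2. The 85 zinc finger starts had a median of 20 CG sites and 60% G and C, against 21 CG sites and 62.3% over 22132 starts of all coding genes. At least 1 CG was present in 97.6% of the zinc finger starts and in 98.1% of all starts. Peaks over starts were rare in the whole genome too, where 18 starts touched a guide 1 peak, 10 a guide 2 peak and 28 a control peak. Peak sequences themselves are not shown, because no genome of this build was used here.

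The windows are called here by chromosome band, and each starts and ends as the hg38 rule gives it. Those with the longest control coverage were 4p16 (chr4:1-700000), 12q24 (chr12:132800001-133280000), 5q35 (chr5:178700001-179100000) and 7q11 (chr7:63000001-65500000). Next came 3p12 (chr3:75600001-75900000), 16p13 (chr16:3000001-3500000), 8q24 (chr8:144600001-145140000) and 10q11 (chr10:42500001-43700000). The shortest coverage lay in 3p21 (chr3:44400001-44800000), 10p11 (chr10:37800001-38800000), 7q36 (chr7:148900001-149600000) and 6p22 (chr6:28000001-28500000). Together they span 9.22 Mb. Zinc finger genes were found in every window, from 1 in 3p12 to 11 in 7q11, and their share of the coding genes was lowest in 16p13 (9 of 24) and highest in 10p11 (4 of 4).

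H3K9me3 covered less of these clusters with either PURPL guide than with sgCtrl, and guide 2 left the least. The length under peaks was 371 kb with guide 1, 163 kb with guide 2 and 731 kb with the control guide, so guide 1 had 50.8% and guide 2 22.2% of the control length. Over all peaks of chromosomes 1 to 22 and X the shares were 52.4% and 40.3%, so the guide 1 share of the windows was about that of the whole list and the guide 2 share below it. The number of peaks differed less than the length, at 79.4% of the control number with guide 1 and 54.4% with guide 2. Mean peak width was 1885 bp with guide 1, 1204 bp with guide 2 and 2950 bp with the control guide. Peaks of at least 5000 bp numbered 16, 0 and 37 in the same order of lists, and the longest measured 16.9 kb with guide 1, 4.63 kb with guide 2 and 49.0 kb with the control guide. In a population of cells, fewer cells with the mark and less mark per cell cannot be told apart. With as many of the highest-scoring peaks taken from each list as guide 2 holds, 11721, the windows had 205% of the control number of peaks with guide 1 and 169% with guide 2, over 70.6% and 33.3% of the control length.

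Covered length was shorter with both guides than with the control guide in all 12 windows. The share of the control length left ran from 19.5% in 6p22 to 76.4% in 8q24 with guide 1 and from 0% in 6p22 and 7q36 to 35.9% in 12q24 with guide 2. Guide 2 was below guide 1 in every window, most nearly level in 3p21, where 34.3% was left with guide 1 and 32.8% with guide 2. The number of peaks was higher with guide 1 than with the control guide in 5q35 (21 against 19) and 12q24 (47 against 43), though the covered length there was shorter. Leaving out 1 window at a time moved the share left over the others to between 45.6% and 52.5% with guide 1 and between 17.5% and 23.996% with guide 2, and the lowest value of each was the one without 12q24.

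**Figure D1:**
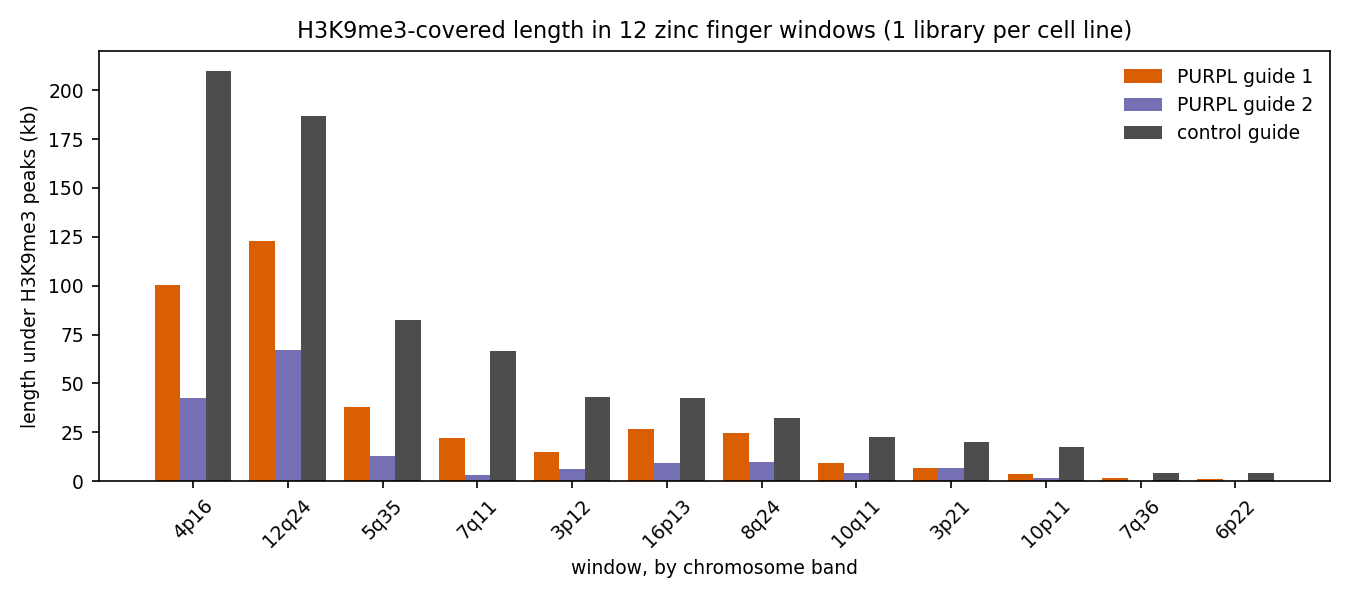
Length under H3K9me3 peaks (kb, from 0) in each of the 12 windows, with 1 bar per cell line (PURPL guide 1, PURPL guide 2, control guide) and no error bars, since each has 1 library. 4p16 and 12q24 hold the most coverage in every list, and the control bar is the tallest of each trio.

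The 12q24 window, at the end of the long arm, was the most densely marked, with 25.6% of its length under peaks with guide 1, 14.0% with guide 2 and 38.9% with the control guide. All 7 of its zinc finger genes carried a peak in all 3 lists. ZNF84 had 19.3 kb under peaks with guide 1, 11.2 kb with guide 2 and 24.5 kb with the control guide, where the peaks spanned 95.2% of its body. ZNF140, a KRAB repressor gene, had 22546 bp with guide 1, 11771 bp with guide 2 and 23004 bp with the control guide. Its guide 1 share of 98.0% was the highest of any zinc finger gene with at least 2000 control bases under peaks. ZNF891, whose body overlaps that of ZNF140 and so shares some of these bases, had 16.9 kb, 9.92 kb and 20.0 kb.

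ZNF605 had the longest control coverage of the coding genes of this window, with 20.2 kb with guide 1, 12.6 kb with guide 2 and 32.7 kb with the control guide. ZNF268, a KRAB gene, had 16.3 kb, 9.65 kb and 26.7 kb. ZNF10 had 11.6 kb, 3.36 kb and 17.5 kb. It was named after its values were seen, because its KRAB domain is the repressor part of many CRISPR interference fusions. The labels do not name the repressor used in these cells. ANHX, a homeobox gene of the window, had 0 bp with guide 1, 0 bp with guide 2 and 1341 bp with the control guide.

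The 4p16 window, at the end of the short arm of chromosome 4, had 100 kb under peaks with guide 1, 42.4 kb with guide 2 and 210 kb with the control guide, in 58, 39 and 60 peaks. Its 5 zinc finger genes carried peaks in all 3 lists, and its 8 other coding genes in none. The widest control peak of the 12 windows lay here, at 422039 to 471024, over part of ZNF721 and the pseudogene ABCA11P. Its 49.0 kb held 12 guide 1 peaks, with 64.6% of its bases, and 13 guide 2 peaks, with 39.3%. ZNF721 had 20.6 kb under peaks with guide 1, 12.2 kb with guide 2 and 31.8 kb with the control guide, and ZNF141, a KRAB gene, had 21.2 kb, 8.65 kb and 37.6 kb. ZNF718 had less left than these neighbours, 13.3 kb, 2.77 kb and 37.3 kb.

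**Figure D2:**
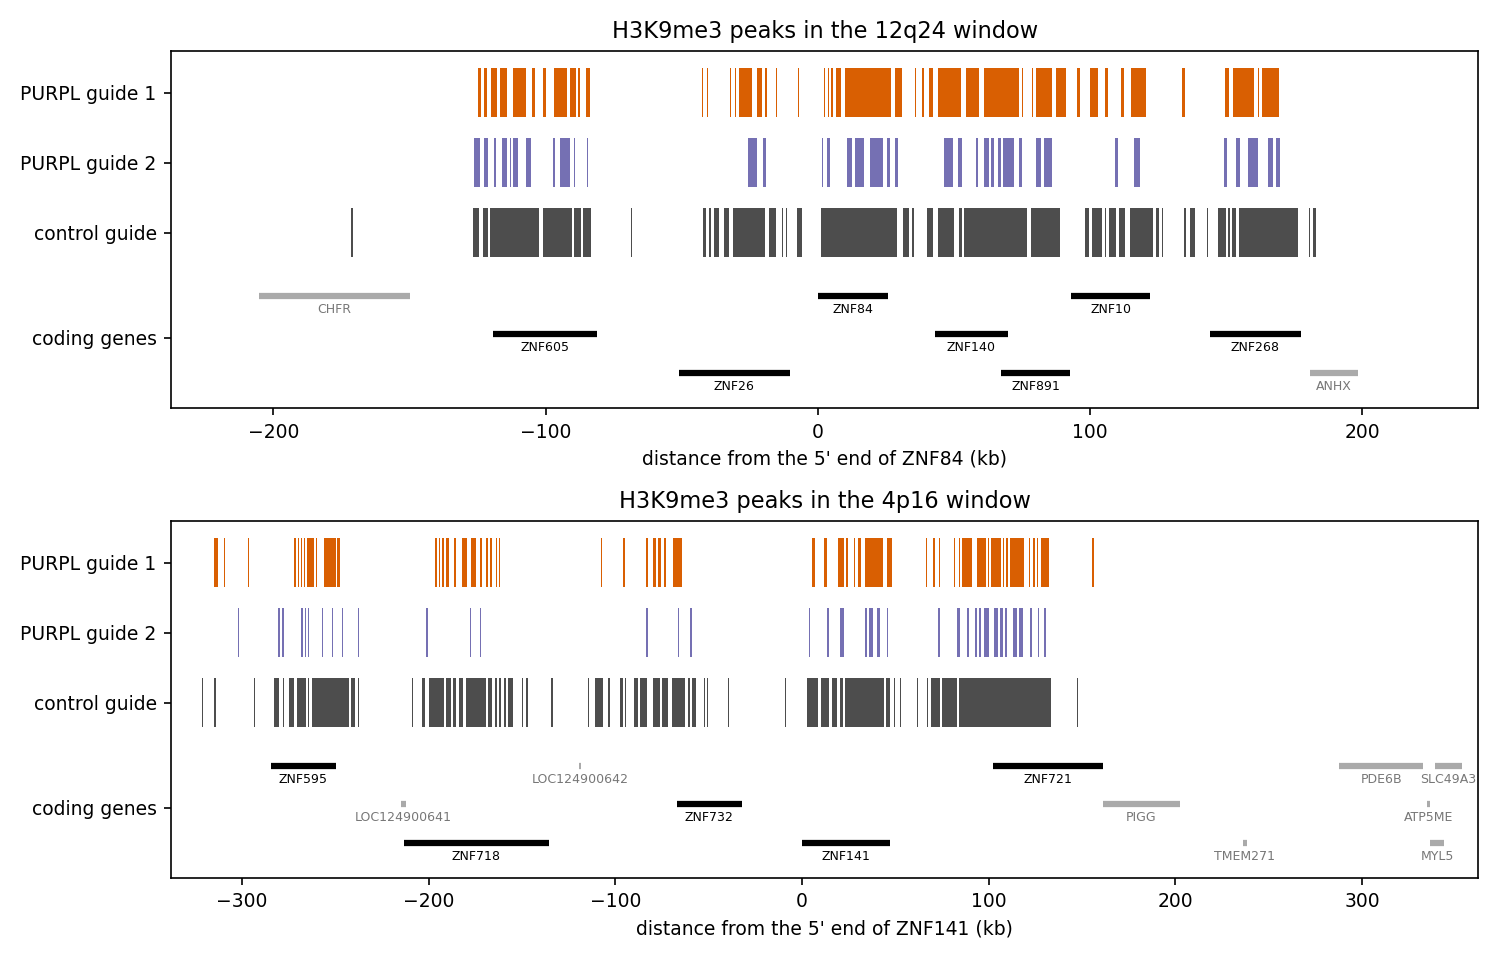
Peaks of PURPL guide 1, PURPL guide 2 and the control guide (coloured blocks, 1 row per list) over the coding genes (black, zinc finger genes; grey, others) of the 12q24 and 4p16 windows, by distance in kb from the 5′ end of ZNF84 or ZNF141. Most wide control blocks, up to 49.0 kb, are met by narrower guide blocks, and the genes without zinc fingers lie mostly outside the blocks.

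In 5q35 and 3p12, wide control peaks were met by narrower guide peaks, and little of the coverage was left with guide 2. The 5q35 window had 37.84 kb with guide 1, 12.9 kb with guide 2 and 82.5 kb with the control guide. ZNF354C there had 12.5 kb, 3.22 kb and 16.8 kb, so guide 1 kept 74.5% and guide 2 19.2% of the control length. Its paralogues differed from it, as ZNF354A, whose rat counterpart Kid-1 is a kidney repressor gene, had 3.85 kb, 3.07 kb and 11.2 kb, and ZNF354B 3.02 kb, 1.01 kb and 10.9 kb. ZNF454 had 0 bp with guide 1, 0 bp with guide 2 and 6059 bp with the control guide, and ZFP2 had 1226, 0 and 7257 bp. ZNF717, the zinc finger gene of 3p12, had 13.9 kb, 5.46 kb and 40.6 kb, the longest control coverage of any coding gene in the windows. Its widest control peak measured 24.2 kb, and the guides met it with 5 and 6 peaks over 27.97% and 15.1% of its bases.

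The zinc finger genes of 16p13 together kept 63.4% of their control coverage with guide 1 and 19.9% with guide 2, and those of 8q24 kept 70.1% and 39.6%. Those of 12q24 kept 69.4% and 37.5%. In 16p13, ZNF174, a SCAN gene, had 4128 bp under peaks with guide 1, 2082 bp with guide 2 and 4429 bp with the control guide. ZSCAN32 had 5283, 1533 and 6377 bp, ZNF200 had 4348, 1826 and 5192 bp, and ZNF263 had 4052, 844 and 6550 bp. ZNF75A kept less than these neighbours, with 4892, 825 and 13236 bp. In 8q24, ZNF7 had 9456 bp with guide 1, 5631 bp with guide 2 and 13392 bp with the control guide. COMMD5, a COMM domain gene whose body overlaps that of ZNF7, shared this peak and had 8187, 4749 and 9162 bp. ZNF251 (1446, 1393 and 1742 bp) and ZNF16 (2075, 301 and 2806 bp) were the other named zinc finger genes there.

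The 3p21 window had 6.88 kb under peaks with guide 1, 6.56 kb with guide 2 and 20.0 kb with the control guide, and the guides differed in which gene had the most. ZNF502 had 1925 bp with guide 1, 4588 bp with guide 2 and 5893 bp with the control guide, so that guide 2 kept 77.9% and guide 1 32.7%. Its neighbour ZNF501 had the opposite order, with 2405, 310 and 3952 bp. ZNF852 had 239, 809 and 2487 bp. ZNF445, which maintains imprinted methylation, had 327 bp with guide 1, 0 bp with guide 2 and 882 bp with the control guide and was named after its values were seen. KIAA1143, a coding gene beside the cluster, had 0, 0 and 2328 bp. With 1 library per cell line, these differences between the guides were not tested.

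Near the centromeres of chromosomes 7 and 10, coverage was sparse. With guide 2, 4.44% of it was left in 7q11, 8.31% in 10p11 and 18.3% in 10q11. The 7q11 window is the longest, 2.5 Mb with 11 zinc finger genes, and had 21.98 kb under peaks with guide 1, 2.95 kb with guide 2 and 66.3 kb with the control guide, which was 33.1% and 4.44% of the control length. ZNF736 had 8435 bp with guide 1, 987 bp with guide 2 and 18788 bp with the control guide. ZNF117 had 2143, 0 and 10994 bp, and ZNF680 1801, 0 and 10915 bp, while ZNF273 had 0, 0 and 3774 bp. ERV3-1, the envelope gene of an endogenous retrovirus next to ZNF117, had 271, 0 and 2535 bp. The readthrough gene ERV3-1-ZNF117 spans both and had 2288, 0 and 13007 bp.

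In 10p11, 3.74 kb was left with guide 1 and 1.44 kb with guide 2, against 17.4 kb with the control guide. ZNF37A held most of it, with 2741, 1443 and 11454 bp. ZNF248 had 996, 0 and 3065 bp and ZNF33A 0, 0 and 2234 bp. In 10q11, 9.21 kb was left with guide 1 (41.0%) and 4.11 kb with guide 2 (18.3%), against 22.5 kb with the control guide. ZNF33B there, a close copy of ZNF33A, had 1113 bp with guide 1, 0 bp with guide 2 and 3431 bp with the control guide. ZNF32 had 1592, 653 and 2644 bp. How reads that fit several copies were counted is not given in the sources used here, and the part of such reads in these values was not tested.

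The 6p22 and 7q36 windows were almost bare in all 3 lists. The 6p22 window had 843 bp with guide 1, 0 bp with guide 2 and 4324 bp with the control guide over 10 zinc finger genes. ZNF165, a gene known for its expression in testis and tumours, had 0, 0 and 1021 bp and ZSCAN31 0, 0 and 723 bp. In 7q36, 0 of 8 zinc finger genes carried a peak in any list, and its control coverage of 4.39 kb lay outside coding zinc finger bodies. Over all windows, 4 of 12 ZSCAN and ZKSCAN genes carried a control peak, with 3 under guide 1 and 2 under guide 2, against 52 of 69 other zinc finger genes, with 42 and 34. This split by symbol was made after the values were seen. Most of the ZSCAN and ZKSCAN genes lie in 6p22, where 3 of 10 zinc finger genes carried a control peak. Symbol and window therefore cannot be told apart here. The other set also holds SCAN genes, such as ZNF174.

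Zinc finger genes of the windows carried peaks more often than coding genes at large, and those marked were shorter with the guides about as often as all marked coding genes. A peak lay over 45 of the 81 genes with guide 1 (55.6%), 36 with guide 2 (44.44%) and 56 with the control guide (69.1%), where 6.58%, 3.76% and 13.1% of all coding genes carried a peak in these lists. With equal numbers of peaks per list the counts were 42 with guide 1, 36 with guide 2 and 39 with the control guide, so the order of guide 1 and the control turned. The share over all coding genes was not computed for that setting. Of the 56 marked in the control, 54 were shorter with guide 1 and 54 with guide 2, shares of which the background over all control-marked coding genes was 94.2% and 97.7%. In both guides 52 were shorter, where the background was 92.6%. The joint coverage of the zinc finger bodies was 289 kb with guide 1, 132 kb with guide 2 and 557 kb with the control guide, so 51.9% and 23.7% was left.

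Losses of at least 2-fold were less frequent among these genes than among coding genes at large with guide 1. At least 2-fold shorter coverage was found for 31 of 56 genes with guide 1 (55.4%, background 81.6%) and for 50 of 56 with guide 2 (89.3%, background 93.8%). No coverage was left for 11 genes with guide 1 (background 58.8%), for 20 with guide 2 (background 76.8%) and for 10 in both (background 52.4%). The median share of control coverage left per marked gene was 39.2% with guide 1 and 11.3% with guide 2, against 0% with each guide over all control-marked coding genes. Zinc finger genes of the chromosome 19 clusters, of which 191 of 242 were marked in the control, had 60.7% and 96.9% at least 2-fold shorter with guide 1 and guide 2, and medians of 46.2% and 12.2% left. For zinc finger genes elsewhere, 99 of 289 marked, 62.6% and 87.9% were at least 2-fold shorter. Marked coding genes at large carried less control coverage each, with 6081 kb over 2601 genes against 557 kb over 56. The part of this difference in the contrast was not tested.

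Coverage above the control was found in 1 guide each for 4 zinc finger genes, 2 of 56 with guide 1 (background 5.65%) and 2 of 56 with guide 2 (background 2%). ZNF487 had 2690 bp with guide 1, 66 bp with guide 2 and 1844 bp with the control guide, and ZSCAN12 had 552, 0 and 459 bp. ZKSCAN7 had 406, 854 and 469 bp. ZNF239, which encodes the DNA and RNA binding protein MOK2, had 0, 1207 and 1027 bp. All 4 had under 2 kb of control coverage, and 0 of the 25 genes unmarked in the control carried a peak in a guide, where the background was 1.35% with guide 1 and 0.819% with guide 2.

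**Figure D3:**
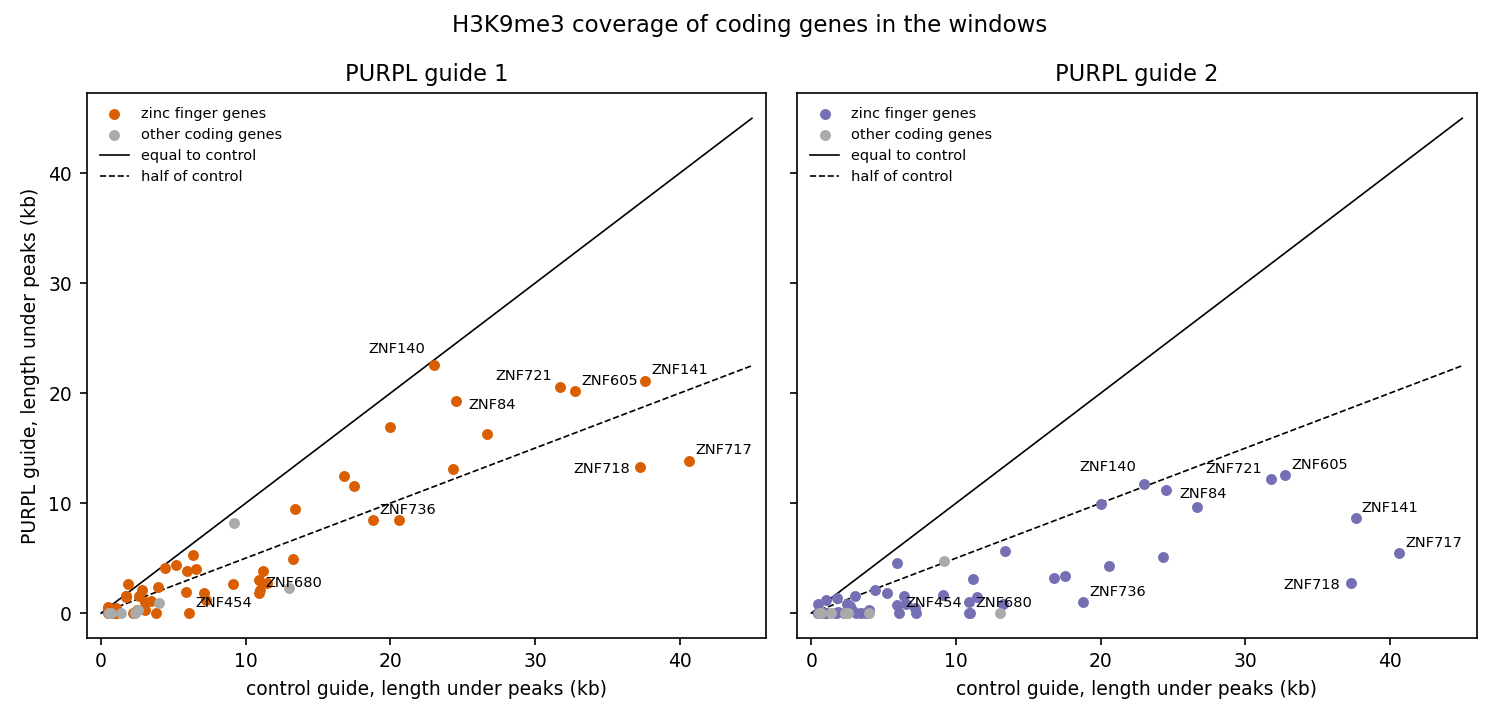
Length under peaks (kb) of each control-marked coding gene of the windows with PURPL guide 1 (left) and PURPL guide 2 (right) on the y axis against the control guide on the x axis; coloured points are zinc finger genes, grey points other coding genes, and lines mark coverage equal to the control and 0.5 of it. With guide 1, ZNF140 lies next to the line of equality and ZNF717 and ZNF718 under the dashed line, and with guide 2 all genes with over 15 kb in the control but ZNF140 lie under it.

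Most covered bases lay on the zinc finger genes rather than on their neighbours in all 3 lists. Zinc finger bodies make up 26.0% of the window length and held 77.8% of the covered bases with guide 1, 81.3% with guide 2 and 76.2% with the control guide. Bodies of other coding genes outside these held 0.957 kb with guide 1, 0 kb with guide 2 and 8.47 kb with the control guide. Of the 58 other coding genes, 4 carried a peak with guide 1 (6.9%), 1 with guide 2 (1.72%) and 9 with the control guide (15.5%). The background over all coding genes was 6.58%, 3.76% and 13.1%, so these counts are near that share. COMMD5 and ERV3-1-ZNF117 share bases with ZNF7 and ZNF117. The remainder, 21.9% with guide 1, 18.7% with guide 2 and 22.7% with the control guide, lay outside coding bodies.

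Pseudogenes held part of that remainder. Of 18 zinc finger pseudogenes, 6 were marked with guide 1, 3 with guide 2 and 7 with the control guide, over a summed 17.1, 4.72 and 38.0 kb. Of all 196 pseudogenes of the windows, these among them, 13, 7 and 20 were marked. ABCA11P, a transporter pseudogene beside ZNF721, had 29368 bp with guide 1, 18995 bp with guide 2 and 45590 bp with the control guide, and shares part of its length with ZNF721. ZNF876P had 3315, 1021 and 13655 bp and ZNF252P 8372, 2315 and 9355 bp, all 3 named after their values were seen. The 30 tRNA genes of the windows carried 0 peaks in all 3 lists. Peaks covered only 371, 163 and 731 kb of the 9.22 Mb of windows, so few peaks would be met by genes this short.

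Along the genes, coverage grew from the 5′ end to the 3′ part in all 3 lists. Over the 47 control-marked zinc finger genes with a known strand, the first of 10 equal parts of the body was covered over a mean of 3.87% with guide 1, 1.07% with guide 2 and 8.52% with the control guide. Part 9 was covered over 35.2% with guide 1, 19.4% with guide 2 and 49.2% with the control guide. In the 5 kb past the 3′ end the means were 12.76%, 6.21% and 22.04%, and in the 5 kb before the 5′ end 3.77%, 0.121% and 3.67%. The 5 parts at the 3′ end held more than the 5 at the 5′ end in 30 genes with guide 1 (8 held less), 23 with guide 2 (7 held less) and 40 with the control guide (7 held less). They took 68.5%, 72.9% and 67.9% of the coverage. The first covered base lay a median of 9.62 kb from the 5′ end with guide 1, 10.8 kb with guide 2 and 8.88 kb with the control guide, over 38, 30 and 47 genes.

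The share of control coverage left was highest in part 9, at 71.6% with guide 1 and 39.5% with guide 2, and for guide 1 lowest in part 6, at 42.2% and 16.8%. The 167 control-marked zinc finger genes of the chromosome 19 clusters also had more coverage towards the 3′ end, from 1.63%, 0.6003% and 6.51% of part 1 to 38.9%, 16.3% and 61.2% of part 9 for guide 1, guide 2 and the control guide. The 5 parts at the 3′ end took 78.5%, 81.8% and 72.3% of the coverage there.

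**Figure D4:**
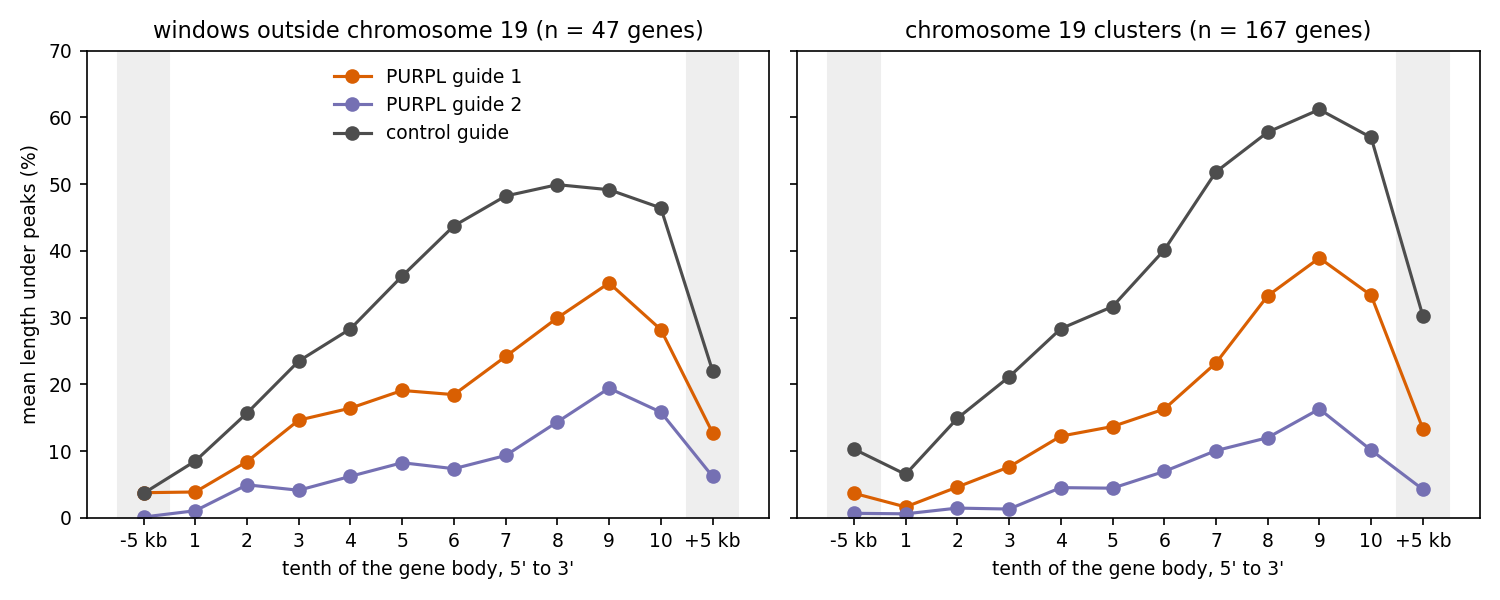
Mean share of length under peaks (%) in 10 equal parts of the gene body, 5′ to 3′, and in 5 kb on either side (grey), for control-marked zinc finger genes of the windows (left, n = 47) and of the chromosome 19 clusters (right, n = 167), 1 line per cell line and no error bars. All lines climb towards the 3′ part, with the control line above both guides within the gene body.

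Most wide control peaks were met by at least 2 peaks of each guide. Control peaks of at least 5000 bp numbered 37 and made up 60.9% of the control length in the windows. Of these, 37 overlapped a guide 1 peak (100%) and 32 a guide 2 peak (86.5%), and 29 and 21 overlapped at least 2. The median was 2 with each guide. Control peaks this wide overlapped a guide 1 peak for 99.3% in the chromosome 19 clusters and 95.1% in the other chromosome arms. For guide 2 these shares were 80.1% and 89.4%, so the shares in the windows were near those elsewhere. Guide 1 peaks lay over 56.2% of their bases and guide 2 peaks over 27.4%. On the 211 control peaks under 5000 bp, guide 1 peaks lay over 20.8% of the bases and guide 2 peaks over 6.76%. ZNF140 had a control peak of 5907 bp that lay wholly under 1 wider guide 1 peak, of 8604 bp. A 7887 bp control peak of 4p16 outside coding genes, at 412943 to 420829, kept 3.42% with guide 1 and 1.39% with guide 2.

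A guide 1 peak met 108 of the 248 control peaks (43.5%, 95% Wilson interval 37.5 to 49.8; background over all control peaks 42.8%) and 63 a guide 2 peak (25.4%, 20.4 to 31.2; background 36.2%). Both guides met 55 of them and 132 met neither. The guide 1 share was close to the background and the guide 2 share below it. That background includes gene-free stretches of at least 1 Mb, where 64.6% of control peaks met a guide 1 peak and 60.4% a guide 2 peak. In the other chromosome arms the shares were 19.67% and 11.64%, below those of the windows. In the chromosome 19 clusters they were 45.2% and 28.9%. Most guide peaks lay on control peaks, 171 of 197 with guide 1 (86.8%, interval 81.4 to 90.8; all peaks 79.2%) and 124 of 135 with guide 2 (91.9%, 86.0 to 95.4; all peaks 82.9%). Guide 1 peaks met 78.5% of the guide 2 peaks, and guide 2 peaks met 40.6% of the guide 1 peaks, against 68.6% and 55.0% over all peaks.

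Peaks without a control peak numbered 26 of 197 with guide 1 (background 20.8%) and 11 of 135 with guide 2 (background 17.1%), and 22 and 10 of them lay within 5000 bp of a control peak. Of each set, 5 overlapped the other guide. The farthest was a guide 1 peak of 1070 bp in 7q11, 14.5 kb from the nearest control peak. The widest, 3095 bp, was also a guide 1 peak of 7q11.

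The windows and the chromosome 19 clusters kept similar shares. In the clusters, over 21.1 Mb, guide 1 had 1133 kb, guide 2 422 kb and the control guide 2437 kb under peaks, so 46.5% and 17.3% was left, against 50.8% and 22.2% in the windows. Without 12q24 the other windows kept 45.6% and 17.5%, so that 1 window sets the order for guide 1. In the other chromosome arms 34.1% and 19.3% was left. When gene-free chromosome ends were also set apart, a division chosen after seeing the data, these became 28.9% and 12.4%. At or above the pooled median score the windows kept 47.2% and 9.88%, the chromosome 19 clusters 33.6% and 8.79% and the other arms 37.76% and 25.9%, so for guide 2 the order of windows and arms turned round. It also turned with equal numbers of peaks, where guide 2 had 33.3% in the windows and 45.2% in the other arms. Guide 2 had 43.8% of the guide 1 length in the windows, 37.3% in the chromosome 19 clusters, 56.6% in the other arms and 77.0% over the genome.

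Regions also differed in the width of their control peaks, and their order by width was not their order by share of length left. Control peaks of at least 5000 bp were 14.9% of those in the windows, 16.9% of those in the chromosome 19 clusters and 1.35% of those in the other arms. Among them guide 1 kept 56.2% of bases in the windows, 50.1% in the chromosome 19 clusters and 52.3% in the other arms. Guide 2 kept 27.4%, 18.7% and 37.1% in the same regions. In this width class the other arms thus came above the chromosome 19 clusters with guide 1, and above the windows and the clusters with guide 2. For control peaks of at least 1000 bp and under 2000 bp, 29.3% in the windows overlapped a guide 1 peak (interval 19.2 to 42.01) and 30.2% in the other arms (28.4 to 32.1), with 13.8% (7.16 to 24.9) and 15.7% (14.2 to 17.2) for guide 2. By score, control peaks in the third quartile overlapped a guide 1 peak for 66.7% in the windows (54.9 to 76.6), 63.7% in the chromosome 19 clusters (58.0 to 69.0) and 27.7% in the other arms (25.8 to 29.5). For guide 2 these were 43.5% (32.4 to 55.2), 42.1% (36.6 to 47.9) and 18.4% (16.8 to 20.0). The intervals of windows and arms overlapped in the highest quartile with guide 1 and in the lowest with guide 2. The part of peak width in the shares left was not tested.

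**Figure D5:**
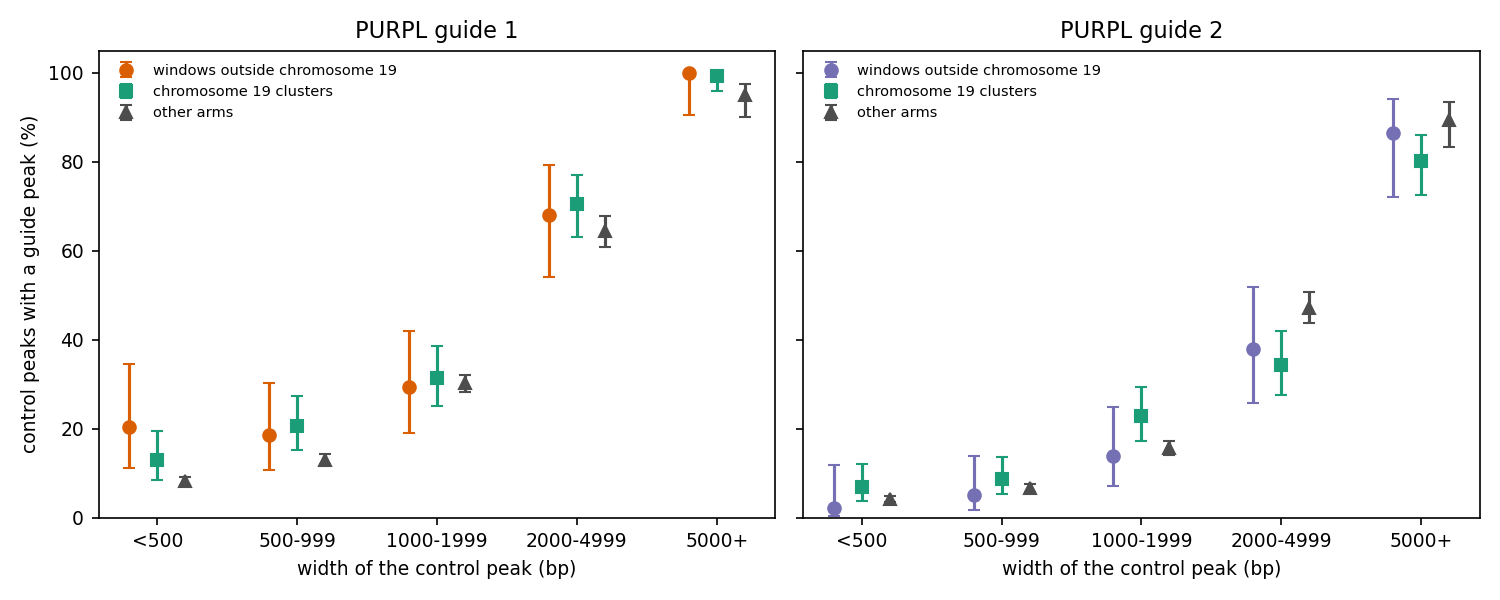
Share of control peaks (%) that overlap a peak of PURPL guide 1 (left) or PURPL guide 2 (right), by width of the control peak, in the windows, the chromosome 19 clusters and the other arms; bars are 95% Wilson intervals for counting error. Shares are highest in the widest class in all 3 regions, at 100% with guide 1 and 86.5% with guide 2 in the windows, and the intervals of windows and arms overlap in 4 of 5 classes with guide 1 and in all 5 with guide 2.

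The cell type was not open to a check by RNA, since peak lists measure none. Peaks lay over 0 of 10 fibroblast marker genes with guide 1, 0 with guide 2 and 2 with the control guide (COL1A2 and DCN). Markers of other cells had 0, 0 and 1 of 3 for keratinocytes (TP63), 0, 0 and 1 of 3 for melanocytes (MITF) and 0 of 3 in every list for endothelial cells. Over all coding genes 6.58%, 3.76% and 13.1% carried a peak, so counts this small are near that share.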

How the data were processed

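H3K9me3 ChIP-seq peak lists of 3 BJ cell lines were analysed, 1 list per cell line. The submitters' processing notes name MACS2 2.2.9.1, deepTools 3.5.1, GATK and Bowtie2 2.4.2, and the builds hg38 and GRCh38.p13. Read numbers and the settings for peak calling were not given in the sources used here, so depth is unknown. Per the labels' protocols, cells were fixed in 1% formaldehyde for 10 min. The deposited score of each peak is the authors' own value, a whole number of at least 10 on an unnamed scale, used within a list as a rank or filter and, in 1 alternative, with 1 limit for all lists. Names of single peaks in the lists hold guide names that differ from the labels, and the sample titles decided which list belongs to which cell line.

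Peaks on chromosomes 1 to 22 and X were used, and members were taken by midpoint. Gene positions and start windows came from RefSeq (GRCh38.p14, same chromosome coordinates). The gene table lists 679 genes of unlocalised and patch sequences under chromosome numbers, and these were left out. Overlap means at least 1 bp. The chromosome 19 clusters are 8.5 to 12.8, 19.7 to 24.3, 34.4 to 38.2, 43.4 to 45.0 and 51.8 to 58.6 Mb; the other arms leave out these, the windows and gene-free stretches of at least 1 Mb. Wilson intervals (95%) cover counting error only. Named genes were up to 3 per window by control coverage, the 5 highest and 5 lowest by mean share left among those with 2000 control bases, genes longer in a guide, and other coding genes with 1000 control bases. Of the genes this rule names, 1 is not reported here. Members, windows and lists were chosen with earlier results of these data known. Coverage functions were tested on simulated data. Software was matplotlib 3.10.9, scipy 1.17.1, pandas 2.3.3 and numpy 2.4.6 under Python 3.11.15.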

Additional observations from a re-analysis of the deposited data

Results flagged for a closer look

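Relative to the control guide, 4 zinc finger genes and 2 windows moved one way with guide 1 and the other way with guide 2. These differences were not tested, since each cell line has 1 library. ZNF487 gained 846 bp with guide 1 and changed by -1778 bp with guide 2. ZSCAN12 was 93 bp longer with guide 1, and with guide 2 the change was -459 bp. ZKSCAN7 changed by -63 bp with guide 1 and was 385 bp longer with guide 2. ZNF239 changed by -1027 bp with guide 1 and was 180 bp longer with guide 2. In numbers of peaks, 5q35 had 2 more with guide 1 and a change of -7 with guide 2, and 12q24 had 4 more with guide 1 and a change of -2 with guide 2.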

How the results depend on the processing

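Covered length stayed below the control in the windows, the chromosome 19 clusters and the other arms under every alternative run. At or above the pooled median score, length left was 47.2% with guide 1 and 9.88% with guide 2 in the windows, 33.6% and 8.79% in the chromosome 19 clusters and 37.76% and 25.9% in the other arms. With equal numbers of peaks it was 70.6% and 33.3%, 55.6% and 23.02%, and 62.8% and 45.2% in the same regions, and with peaks within 5000 bp merged 60.4% and 31.4%, 54.9% and 24.1%, and 39.8% and 25.6%. Clipping peaks to the windows gave 50.7% with guide 1, and leaving out the windows that flank a centromere 53.8% and 24.6%. With chromosome ends counted as gene-free, an alternative chosen after seeing the data, the other arms had 28.9% and 12.4%. The number of peaks in the windows was 98.7% and 53.3% of the control at the pooled median score, 69.6% and 58.8% after merging and 92.3% and 68.1% without the flanking windows. With equal numbers it was 205% and 169% (168.75%), above the control. The share of control peaks met was 70% and 53.8% (53.75%) with equal numbers, 52.0% and 34.3% after merging, and 22.2% and 4.44% where guide peaks had to cover 50% of it. At the pooled median score 26 zinc finger genes were marked with guide 1, 18 with guide 2 and 36 with the control guide. The count at least 2-fold shorter with guide 1 was 12 of 39 control-marked genes with equal numbers and 16 of 39 without the flanking windows, against 31 of 56. At the pooled median score it was 22 of 36, and after merging 27 of 56. With guide 2 the counts were 35, 35, 36 and 41 in the same order of settings, against 50 of 56. Shares over all coding genes were not computed for these alternatives. With equal numbers 42 genes were marked with guide 1, 36 with guide 2 and 39 with the control guide. For guide 2 the windows had less left than the other arms at the pooled median score and with equal numbers. These alternatives leave smaller sets, and the cause was not tested. No paired analysis was possible because each group has 1 H3K9me3 library. Depth, peak-calling settings and the scale of the score are unknown, so a list with fewer reads and a cell line with less mark cannot be told apart.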
